A study of Mus musculus with 4 samples.

Results

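Cells read their surroundings through a small group of contact and guidance systems that were first described in growing axons: Eph receptors and ephrins, semaphorins with plexins and neuropilins, Slits with Robo receptors, and the FLRT proteins with Unc5 receptors. The genes of these systems were taken from the deposited expression table by their symbols, and 66 of its 24328 symbols belonged to them. The table covers sorted mouse skeletal muscle stem cells (satellite cells) in 2 groups of 2 libraries. The YFP group carried 1 Pax7CreERT2 allele and a YFP reporter at ROSA26 (Pax7CreERT2/+; ROSA26YFP/+) and was 7 months old. The DEK group carried the same Cre allele and a DEK-EGFP transgene at H11 (Pax7CreERT2/+; H11DEK-EGFP/+) and was 4.5 months old. Mice of both groups were perfused with paraformaldehyde, so the cells were fixed before muscle was digested and cells were sorted. Cre in both groups is produced from the Pax7 locus, which is active in satellite cells. Age, fluorescent protein and insertion site went with the group, so the effect of the transgene and those of the other 3 cannot be told apart. Whether the 2 libraries of a group came from separate animals, or from pools, is not stated in the labels. The p-values below rest on the spread between libraries of a group, shared across genes, and that spread may be technical.

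Eph receptors are receptor tyrosine kinases, and their ligands, the ephrins, sit on the surface of neighbouring cells, through a lipid anchor in the A class and a transmembrane segment in the B class. Binding sends a signal into both cells and usually changes adhesion and the actin skeleton. Semaphorins are secreted (class 3) or membrane-bound (classes 4 to 7) proteins that signal through plexins, with neuropilins as co-receptors for most of class 3. Secreted Slits signal through Robo receptors. FLRT proteins bind latrophilins and Unc5 receptors on other cells and can also promote adhesion between like cells. In muscle these systems are known for roles in motor axon targeting, muscle stem cell migration and the supply of nerve and vessel branches.

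The comparison of DEK with YFP asks how RNA levels in quiescent satellite cells differ when more of Dek, a chromatin protein, is made. Dek stood at 512 and 504 FPKM (fragments normalised to transcript length and library total) in YFP and reached 3196 and 1639.5 FPKM in DEK, so both DEK libraries matched their label. Satellite cell markers were present in every library, with Pax7 at 93.9 to 184 FPKM. Their summed level over 10 genes was 1673 to 1772 FPKM in YFP and 1586 to 2121 FPKM in DEK, and 1 of 10 passed the limma test described below. By that test 4.57% of all tested genes were higher in DEK and 3.21% lower, the shares to set beside the counts that follow. The DEK libraries also held more RNA of markers of other cell types. Of 16 endothelial markers 15 were tested and 13 were higher in DEK, their sum was 63.8 and 71.9 FPKM in YFP and 269 and 338 FPKM in DEK, and Kdr, Flt1, Ptprb and Robo4 were listed at 0 in both YFP libraries. Tek, which was not called, made up most of the YFP sum. It stood at 55.9 and 56.7 FPKM in YFP and 78.8 and 66.5 FPKM in DEK. Of 11 macrophage and monocyte markers with a row, 8 were tested and 4 were higher. Their sum was 4.39 and 29.1 FPKM in YFP and 198 and 203 FPKM in DEK, with Adgre1, C1qa and C1qb at 0 in YFP. Of 8 Schwann cell markers 5 were tested and 2 were higher, with sums of 22.0 and 25.9 FPKM against 43.1 and 44.7 FPKM, and Cdh19 was at 0 in YFP. Sums of fibro-adipogenic markers were 1568 and 1898 FPKM in YFP and 1840 and 2003 FPKM in DEK, and 4 of the 10 were higher and 2 lower. Those of pericyte markers were 738 and 759 FPKM in YFP and 617 and 908 FPKM in DEK, with 3 of 10 higher, 0 lower and Higd1b at 0 in YFP. Notch3, which was not called, made up most of each pericyte sum, at 401 and 441 FPKM in YFP and 337 and 542 FPKM in DEK. Rgs5, 1 of the 3 called, stood at 2.81 and 2.14 FPKM in YFP and 23.0 and 12.1 FPKM in DEK. Such sums follow the most abundant genes of a list. Of 10 myofibre markers 4 were tested and 0 passed limma, with 2 higher and 1 lower at an unadjusted p under 0.05. Their sums were 87.9 and 101 FPKM in YFP and 63.4 and 113 FPKM in DEK. Erythroid markers summed to 0.299 and 7.71 FPKM in YFP and 24.9 and 347 FPKM in DEK, with 1 of 4 tested genes higher. A gene was tested if it reached 1 FPKM in 2 or more libraries. Most of the called endothelial markers were below 1 FPKM in both YFP libraries, as were C1qa, C1qb, Csf1r, Higd1b, Myh11 and Hba-a1. These markers passed that filter through the DEK libraries alone, the group where they are high. A list of 20 immediate early and heat shock genes, which can respond to dissociation and stress, summed to 685 and 779 FPKM in YFP, to 21889 FPKM in DEK replicate 1 and to 4698 FPKM in DEK replicate 2, and 10 were higher. The cells of both groups were fixed before digestion, as stated above, and the cause of this difference was not tested. Ribosomal precursor RNA (Rn45s) took 11.8 and 15.7% of the YFP totals and 5.15 and 5.55% of the DEK totals. In bulk RNA, a change in the number of cells of a type and a change in RNA per cell cannot be told apart.

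**Figure D1:**
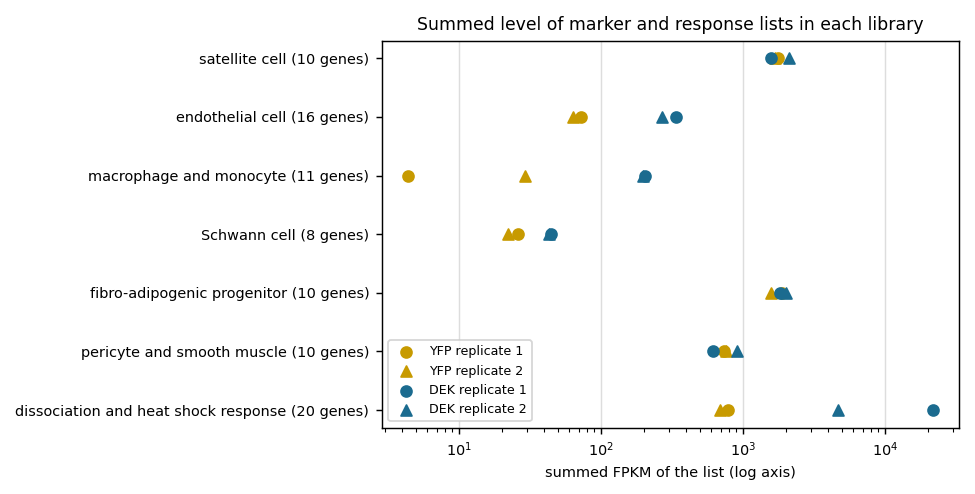
Summed FPKM (log axis) of marker lists for satellite cells and 5 other cell classes, and of the dissociation and heat shock list, with 1 point for each of the 4 libraries. The endothelial sums are 63.8 and 71.9 FPKM in YFP and 269 and 338 FPKM in DEK, while the satellite cell sums of both groups lie between 1586 and 2121 FPKM. Tek, which was not called, makes up most of the endothelial sum in YFP.

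Guidance genes together made up a steady pool of RNA: in replicates 1 and 2 their summed level was 290.8 and 299.6 FPKM for YFP, and 278.0 and 318 FPKM for DEK. Few genes supplied it. The semaphorin Sema6a alone held 26.8 and 25.3% of that sum in YFP and 31.3 and 28.0% in DEK. With the plexins Plxnd1, Plxnb2, Plxna2 and Plxna3 the share was 54.8 and 53.1% in YFP and 60.8 and 59.0% in DEK. Of the 66 genes 7 had a mean of 10 FPKM or more over the 4 libraries, 25 lay between 1 and 10 FPKM, and 34 lay below 1 FPKM. The plot of levels by gene and library shows this spread within each family.

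**Figure D2:**
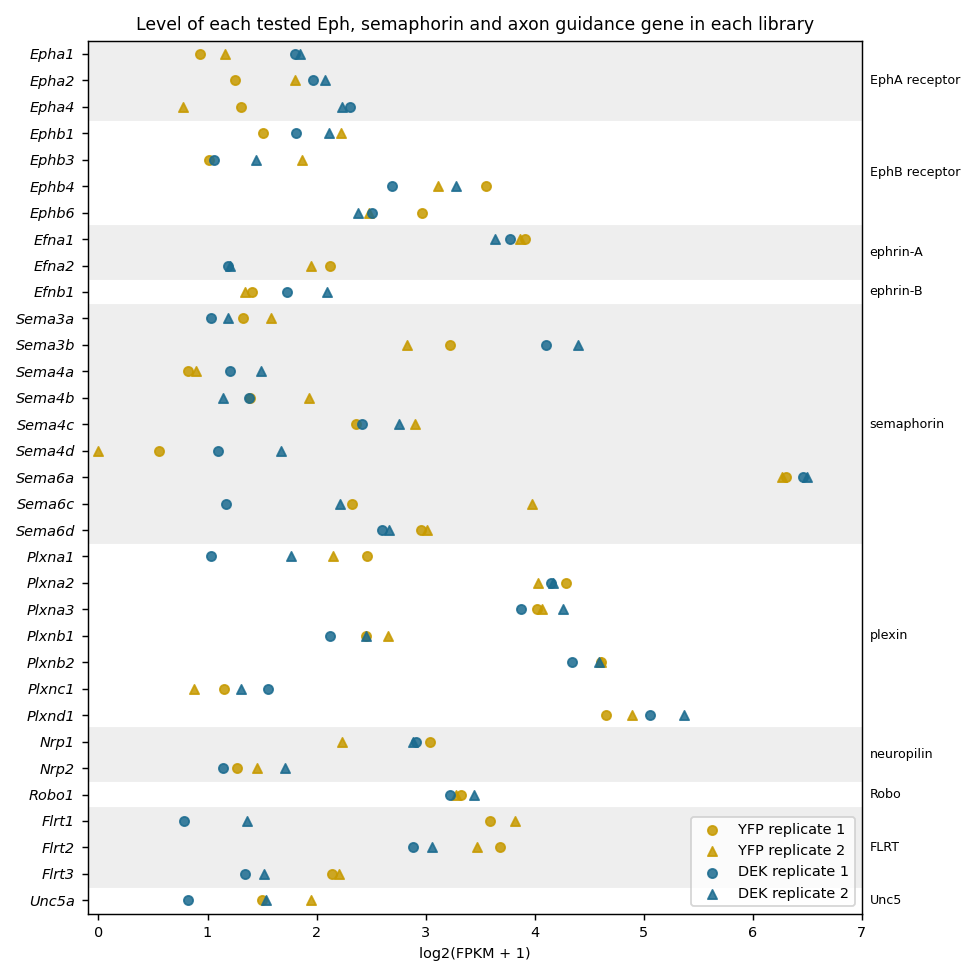
Level of each of the 33 tested guidance genes as log2(FPKM + 1) in each library, grouped by family; colour gives the group and shape the replicate. Sema6a lies farthest to the right in all 4 libraries, and for Flrt1 the DEK points (0.724 and 1.58 FPKM) lie far to the left of the YFP points (11.1 and 13.1 FPKM).

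Testing with limma on log2(FPKM + 1) covered the genes that reached 1 FPKM in 2 or more libraries, and a call means a Benjamini-Hochberg adjusted p under 0.05 over all 12179 genes tested. Of the 66 guidance genes 33 were tested and 33 were not. Sema4a and Sema4d passed that filter with no YFP library at 1 FPKM, and no guidance gene passed it with no DEK library at 1 FPKM. Epha4 reached 1 FPKM in YFP replicate 1 and both DEK libraries, and Flrt1 in both YFP libraries and DEK replicate 2. Neither would have passed on the libraries of its lower group alone. By limma 3 of the 33 were called, 9.09% against 7.78% of all tested genes. Epha4 and Sema3b were higher in DEK (6.06%, against 4.57% of all tested genes) and Flrt1 was lower (3.03%, against 3.21%). At an unadjusted p under 0.05, 5 were higher and 6 lower, where all tested genes had 16.9% higher and 12.2% lower. Both DEK values lay above both YFP values for 10 of the 33 (30.3%, against 34.0% of all tested genes) and below them for 12 (36.4%, against 26.9%), and the groups overlapped for 11. The median log2 fold change of the 33 was -0.04, beside 0.05 for all tested genes. With Rn45s removed and the columns rescaled these medians were -0.16 and -0.07. The shares of called genes were thus close to those of the whole table. The endothelial, macrophage, Schwann cell, erythroid and stress gene sums given above differed between the same libraries, as did some fibro-adipogenic and pericyte markers. Their part in the values of Epha4, Sema3b and Flrt1, and of the other genes below, was not tested.

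**Figure D3:**
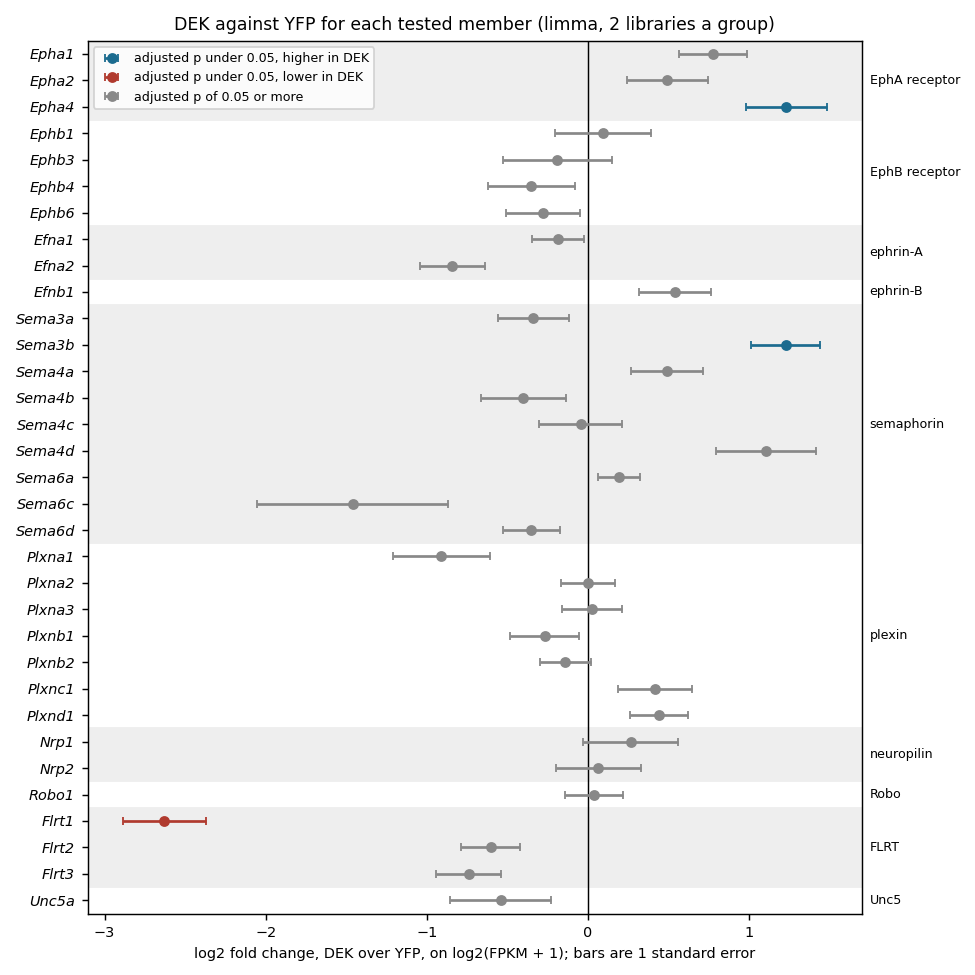
Log2 fold change of DEK over YFP on log2(FPKM + 1) for the 33 tested guidance genes with 1 standard error from limma, coloured by the call at an adjusted p of 0.05. Flrt1 stands at -2.63, Epha4 and Sema3b at 1.23, and the 3 FLRT genes all lie left of 0.

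The FLRT genes encode leucine-rich repeat membrane proteins that act in adhesion and repulsion between cells, and their median log2 fold change of -0.74 was the lowest of the families here. All 3 had both DEK values below both YFP values, as 26.9% of all tested genes did, and 1 of the 3, Flrt1, was called (3.21% of all tested genes were called lower). Flrt1 had 11.1 FPKM in YFP replicate 1, 13.1 FPKM in YFP replicate 2, 0.724 FPKM in DEK replicate 1 and 1.58 FPKM in DEK replicate 2. The groups were far apart, with means of 12.1 ± 1.44 and 1.15 ± 0.604 FPKM (SD, n = 2 each), a ratio of 10.5. Flrt1 fell by 2.63 on the log2 scale (SE 0.26, limma adjusted p = 0.00684), and 13 of the 12179 tested genes had a lower log2 fold change. The fold change was -2.74 without YFP replicate 1 (adjusted p = 0.0584), -2.52 without YFP replicate 2 (0.0778), -2.34 without DEK replicate 1 (0.0913) and -2.92 without DEK replicate 2 (0.0472), so the call was lost in 3 of these 4 fits. Over all 17 alternatives the adjusted p ran from 0.00289 to 0.0913, and Flrt1 had an unadjusted p under 0.05 in each of them. With an added value of 5 FPKM its log2 fold change was -1.48. In the GENCODE annotation of GRCm38 Flrt1 lies on the opposite strand within the span of Macrod1 and shares no exon bases with it. Macrod1 was at 4.16 and 6.43 FPKM in YFP and 3.78 and 10.1 FPKM in DEK.

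Flrt2 stood at 11.8 and 10.1 FPKM in YFP and 6.38 and 7.36 FPKM in DEK. Its groups did not overlap, but the log2 fold change of -0.60 (SE 0.18) did not pass (limma adjusted p = 0.0995). Flrt3 stood at 3.41 and 3.62 FPKM in YFP and 1.54 and 1.87 FPKM in DEK. Its log2 fold change of -0.74 (SE 0.20) also missed the threshold (limma adjusted p = 0.0775). The summed FLRT level was 26.3 and 26.8 FPKM in YFP and 8.65 and 10.8 FPKM in DEK. The called gene Flrt1 is part of this sum and made up most of its difference, so the sum is no separate result. Flrt2 had the highest level of the 3 in DEK, and in YFP Flrt1 and Flrt2 were at like levels, with overlapping values. On the receptor side, the 4 Unc5 genes summed to 2.82 and 3.04 FPKM in YFP and 1.60 and 2.24 FPKM in DEK. The sum was lower in both DEK libraries, but the groups overlapped for each of the 4 genes. Unc5a, a receptor for netrins and FLRT proteins, was at 1.83 and 2.85 FPKM in YFP and 0.771 and 1.91 FPKM in DEK, with overlapping groups (log2 fold change -0.54, limma adjusted p = 0.304). The Unc5a value was -0.18 without DEK replicate 1 and -0.90 without DEK replicate 2. Unc5b, Unc5c and Unc5d were not tested and did not exceed 0.815 FPKM. The latrophilin Adgrl1, an FLRT receptor on other cells, was at 8.27 and 8.48 FPKM in YFP and 8.07 and 9.49 FPKM in DEK (log2 fold change 0.06, limma adjusted p = 0.857).

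The start regions of the FLRT genes are shown because the 3 genes had the same direction, and because their letters can be set beside that of Epha4 below. RefSeq's promoter table (GRCm38.p6) gives 250 bases before to 50 bases after the start of Flrt2 and Flrt3; Flrt1 has no entry. Capitals mark matches to an E-box (CANNTG, the core bound by basic helix-loop-helix factors), an AP-1 site (TGANTCA) or a GC box (GGGCGG), searched on both strands. Flrt2 lies at chr12:95691976-95692275 on the plus strand and Flrt3 at chr2:140671427-140671726 on the minus strand.
Flrt2: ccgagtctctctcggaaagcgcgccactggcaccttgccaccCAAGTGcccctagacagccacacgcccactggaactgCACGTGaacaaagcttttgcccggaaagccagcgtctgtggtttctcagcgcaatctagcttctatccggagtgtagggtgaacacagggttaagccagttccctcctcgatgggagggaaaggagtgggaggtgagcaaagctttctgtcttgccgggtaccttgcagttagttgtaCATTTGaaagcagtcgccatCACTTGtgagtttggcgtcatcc
Flrt3: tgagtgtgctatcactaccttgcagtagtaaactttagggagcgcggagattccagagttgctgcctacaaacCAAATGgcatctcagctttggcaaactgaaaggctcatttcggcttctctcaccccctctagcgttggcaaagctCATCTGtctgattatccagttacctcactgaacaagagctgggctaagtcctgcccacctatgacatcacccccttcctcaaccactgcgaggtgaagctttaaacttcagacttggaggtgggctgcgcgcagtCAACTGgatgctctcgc
The Flrt2 stretch held 4 E-box matches and the Flrt3 stretch 3, and neither held an AP-1 or GC box match. Of 32851 promoter stretches of the same length, 72.3% held an E-box, 7.81% an AP-1 match and 35.7% a GC box. A match is a run of letters and not a measured binding site.

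Among the Eph receptors, 1 of the A class passed the test, Epha4, and none of the B class (0 of 4 by limma, also at an unadjusted p under 0.05). The 9 EphA genes summed to 3.86 and 4.50 FPKM in YFP and 9.89 and 9.72 FPKM in DEK, while the 5 EphB genes summed to 20.4 and 18.5 FPKM in YFP and 13.7 and 18.0 FPKM in DEK. The difference between the classes was not tested. In the A class, the 3 that were tested had both DEK values above both YFP values, as 34.0% of all tested genes did. Epha4, a receptor that binds ephrins of both classes, stood at 1.48 and 0.707 FPKM in YFP and 3.96 and 3.71 FPKM in DEK. Its groups were clearly apart, with means of 1.09 ± 0.548 and 3.83 ± 0.178 FPKM (SD, n = 2 each). Epha4 rose by 1.23 on the log2 scale (SE 0.25, limma adjusted p = 0.0423). The call was lost in each of the 4 fits that left out a library, with a log2 fold change of 0.96 to 1.50 and an adjusted p of 0.0796 to 0.226 on the same genes, and with an added value of 0.1 FPKM (log2 fold change 1.80, adjusted p = 0.0626). With an added value of 5 FPKM the log2 fold change was 0.54. Over 16 alternatives the adjusted p ran from 0.0360 to 0.226. Epha1 stood at 0.909 and 1.24 FPKM in YFP and 2.5 and 2.59 FPKM in DEK (log2 fold change 0.78, SE 0.21, limma adjusted p = 0.0772). On the opposite strand, Zyx shares 236 exon bases with Epha1 in GENCODE and was at 29.0 to 38.0 FPKM in the 4 libraries. Without strand the reads of the pair cannot be told apart there, and the authors' use of strand is not given in the sources used here. Epha2, a receptor best known in epithelial and endothelial cells, stood at 1.38 and 2.48 FPKM in YFP and 2.91 and 3.21 FPKM in DEK (log2 fold change 0.49, limma adjusted p = 0.250), with a log2 fold change of 0.22 without YFP replicate 1 and 0.77 without YFP replicate 2. The other 6 EphA genes did not exceed 0.408 FPKM, and Epha5, Epha8 and Epha10 were listed at 0 in all libraries.

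The Epha4 start region is shown since Epha4 is a called gene with an entry in the RefSeq table. It lies at chr1:77515039-77515338 of GRCm38.p6 on the minus strand, and capitals have the same meaning as above.
Epha4: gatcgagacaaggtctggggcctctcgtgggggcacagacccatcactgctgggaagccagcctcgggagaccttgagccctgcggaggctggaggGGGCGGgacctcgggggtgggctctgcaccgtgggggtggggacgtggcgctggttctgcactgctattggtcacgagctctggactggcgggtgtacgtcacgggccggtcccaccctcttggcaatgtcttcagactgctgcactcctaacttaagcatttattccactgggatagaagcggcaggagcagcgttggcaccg
The stretch held 1 GC box match and neither an E-box nor an AP-1 match, and 64.0% of its bases were G or C, against 55.3% for Flrt2 and 51.3% for Flrt3.

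EphB receptors bind the transmembrane ephrin-B ligands, and the groups overlapped for each of the 4 tested genes. Ephb4, best known from venous endothelium, was the most abundant Eph receptor at 10.8 and 7.64 FPKM in YFP and 5.46 and 8.70 FPKM in DEK (log2 fold change -0.35, SE 0.27, limma adjusted p = 0.433). Its log2 fold change was -0.13 without YFP replicate 1, -0.57 without YFP replicate 2, -0.06 without DEK replicate 1 and -0.64 without DEK replicate 2. Ephb6, whose kinase domain is inactive, ranged from 4.19 to 6.80 FPKM over the 4 libraries. Ephb1 ranged from 1.84 to 3.67 FPKM and Ephb3 from 1.02 to 2.64 FPKM, in both cases with the lowest and the highest value in the YFP group. The adjusted p of these 3 ran from 0.461 to 0.857, and Ephb2 did not exceed 0.0285 FPKM.

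On the ligand side, Efna1 was the most abundant ephrin. It stood at 14.0 and 13.6 FPKM in YFP and 12.7 and 11.4 FPKM in DEK, lower in both DEK libraries by a small margin (log2 fold change -0.18, SE 0.16, limma adjusted p = 0.484). Efna2 stood at 3.36 and 2.86 FPKM in YFP and 1.27 and 1.31 FPKM in DEK. The groups were well apart, with a log2 fold change of -0.84 (SE 0.20), and the adjusted p of 0.0621 was just above the threshold. Efna2 was called lower with Rn45s removed, with quantile normalization and without the variance trend. Efnb1, a transmembrane ligand, stood at 1.65 and 1.53 FPKM in YFP and 2.31 and 3.28 FPKM in DEK (log2 fold change 0.54, SE 0.22, limma adjusted p = 0.176). Efna4 had a value above 1 FPKM in DEK replicate 2 alone (1.06 FPKM), and Efna3, Efna5, Efnb2 and Efnb3 stayed below 1 FPKM. Efnb2, a marker of arterial endothelium, was at 0.173 and 0.310 FPKM in YFP and 0.254 and 0.338 FPKM in DEK, with overlapping groups, and was too low to be tested. Total ephrin-A RNA was 18.2 and 18.0 FPKM in YFP and 15.0 and 14.2 FPKM in DEK.

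Semaphorins were the largest family, with 20 genes, of which 9 were tested. Sema3b, a secreted semaphorin that acts through neuropilins, was the called member. It stood at 8.33 and 6.10 FPKM in YFP and 16.2 and 20.1 FPKM in DEK, and even its lower DEK value was well above both YFP values. The means were 7.22 ± 1.58 and 18.2 ± 2.78 FPKM (SD, n = 2 each), a ratio of 2.52. Sema3b rose by 1.23 on the log2 scale (SE 0.21, limma adjusted p = 0.0305). Leaving out any 1 of the 4 libraries ended the call, with a log2 fold change between 1.03 and 1.42 and an adjusted p of 0.0830 to 0.169 on the same genes. Over 17 alternatives the adjusted p ran from 0.0243 to 0.169. Sema3a, a repellent of axons that muscle progenitor cells can secrete, was far lower, at 1.50 and 1.99 FPKM in YFP and 1.05 and 1.28 FPKM in DEK (log2 fold change -0.34, limma adjusted p = 0.352). The other class 3 genes (Sema3c to Sema3g) did not exceed 0.48 FPKM, and Sema3c and Sema3g were listed at 0 in both YFP libraries. Sema3g, best known from arterial endothelium, was at 0.0361 and 0.0244 FPKM in DEK.

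**Figure D4:**
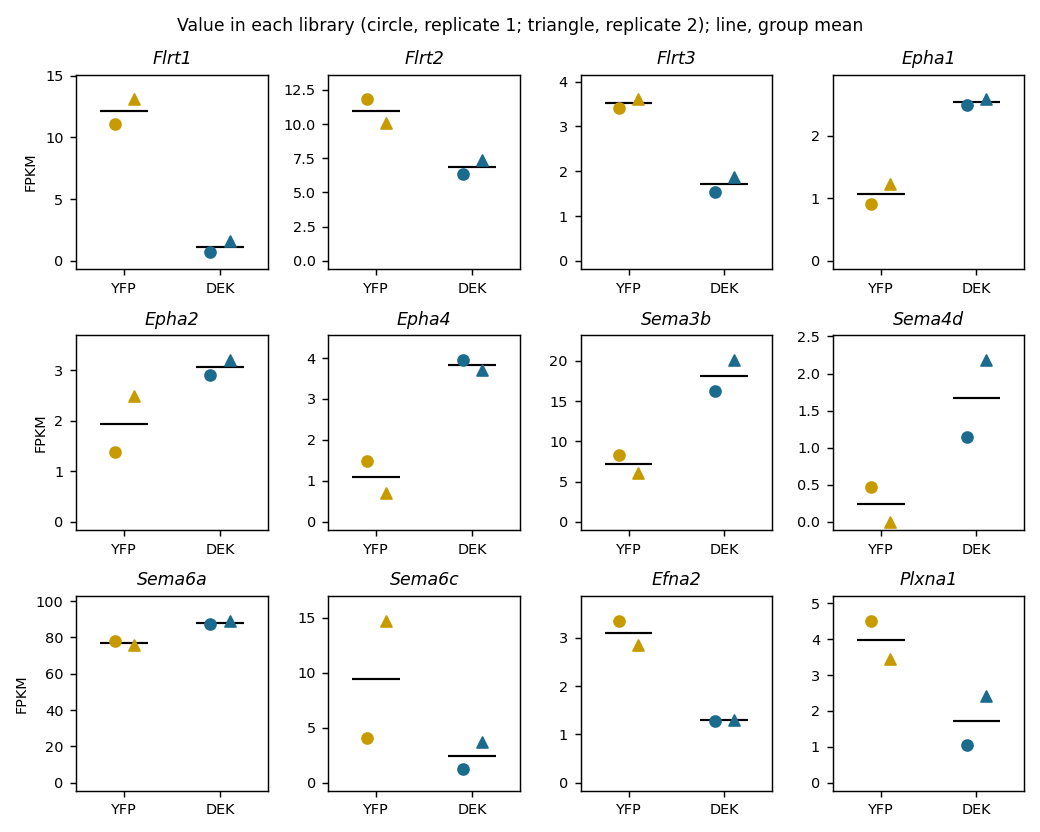
FPKM of 12 guidance genes in each library, on axes of their own; circles are replicate 1, triangles replicate 2 and lines group means. The DEK and YFP points are widely apart for Flrt1, Epha4 and Sema3b, while the YFP points of Sema6c lie at 4.02 and 14.7 FPKM, far from each other.

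Membrane-bound semaphorins ranged from the most abundant guidance gene to genes near 0. Sema6a, a transmembrane ligand of class A plexins, stood at 78.1 and 75.9 FPKM in YFP and 87.1 and 89.2 FPKM in DEK. Both DEK values were higher, by a ratio of 1.15 between the means, and the log2 fold change of 0.19 (SE 0.13) did not pass (limma adjusted p = 0.360). The Sema6a value was 0.06 with Rn45s removed and 0.10 with quantile normalization. Sema6d stood at 6.76 and 7.05 FPKM in YFP and 5.05 and 5.34 FPKM in DEK (log2 fold change -0.35, limma adjusted p = 0.245). Sema6c differed within each group. In YFP, replicates 1 and 2 had 4.02 and 14.7 FPKM, and in DEK they had 1.25 and 3.66 FPKM, so replicate 2 was 3.66 times replicate 1 in YFP and 2.93 times in DEK. Its log2 fold change of -1.46 had a SE of 0.59, and the adjusted p by limma was 0.170.

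Class 4 semaphorins act mainly through class B plexins and several are known from immune cells. Sema4d, which is abundant in lymphocytes, was at 0.472 FPKM in YFP replicate 1, listed at 0 in YFP replicate 2, and at 1.14 and 2.19 FPKM in DEK. Sema4a, also known from immune cells, stood at 0.762 and 0.863 FPKM in YFP and 1.3 and 1.82 FPKM in DEK. Neither passed, with adjusted p by limma of 0.0829 and 0.206. In the same DEK libraries the macrophage and monocyte markers summed to 198 and 203 FPKM, against 4.39 and 29.1 FPKM in YFP, and their part in these values was not tested. Sema4c, a ligand of Plxnb2, was the most abundant of the class, at 4.14 and 6.47 FPKM in YFP and 4.35 and 5.75 FPKM in DEK (log2 fold change -0.04, limma adjusted p = 0.926). Sema4b stood at 1.62 and 2.81 FPKM in YFP and 1.61 and 1.20 FPKM in DEK (log2 fold change -0.40, limma adjusted p = 0.356). The remaining Sema4f, Sema4g, Sema5a, Sema5b, Sema6b and Sema7a did not exceed 0.927 FPKM, a value of Sema6b in YFP replicate 2.

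Plexins are the semaphorin receptors and carry a GTPase-activating domain on their cytoplasmic side. None of the 7 tested genes was called by limma, where 7.78% of all tested genes were. At an unadjusted p under 0.05, 1 was higher and 1 lower, beside 16.9% and 12.2% of all tested genes. Plxnd1, a receptor of Sema3e that is also prominent in endothelial cells, was the most abundant. It stood at 24.1 and 28.8 FPKM in YFP and 32.2 and 40.4 FPKM in DEK (log2 fold change 0.44, SE 0.18, limma adjusted p = 0.171). Both DEK values were above both YFP values. In the same libraries the endothelial markers summed to 269 and 338 FPKM against 63.8 and 71.9 FPKM, and Tek made up most of the YFP sum. The part of endothelial RNA in the Plxnd1 difference was not tested. The Plxnd1 ligand gene Sema3e was listed at 0 in 3 libraries and at 0.0149 FPKM in the other.

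For the next 3 plexins the groups lay close together. Plxnb2 was at 23.3 and 23.4 FPKM in YFP and 19.3 and 23.0 FPKM in DEK (log2 fold change -0.14, SE 0.16). Plxna2, a Sema6a receptor, was at 18.6 and 15.3 FPKM in YFP and 16.7 and 17.0 FPKM in DEK, so that both DEK values lay between those of YFP. Plxna3 was at 15.2 and 15.8 FPKM in YFP and 13.7 and 18.1 FPKM in DEK. The adjusted p by limma was 0.592 to 0.9997 for these 3. The order of levels from Plxnd1 to Plxna3 thus held neighbours that do not differ beyond their spread: the values of Plxna2 and Plxna3 overlap in both groups.

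Plxna1 was the plexin with the lowest log2 fold change. It stood at 4.52 and 3.45 FPKM in YFP and 1.05 and 2.41 FPKM in DEK (log2 fold change -0.91, SE 0.30, limma adjusted p = 0.116), and the antisense gene Gm26811 shares 970 exon bases with it in GENCODE. Plxnb1, a Sema4d receptor, stood at 4.48 and 5.31 FPKM in YFP and 3.37 and 4.47 FPKM in DEK (log2 fold change -0.27, limma adjusted p = 0.446). Plxnc1, the Sema7a receptor, stood at 1.22 and 0.837 FPKM in YFP and 1.93 and 1.48 FPKM in DEK (log2 fold change 0.42, limma adjusted p = 0.278). Plxna4, another Sema6a receptor, and Plxnb3 did not exceed 0.235 FPKM.

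Neuropilins bind class 3 semaphorins and vascular growth factors, and neither gene differed beyond its spread. Nrp1, which is prominent in endothelium, was at 7.20 and 3.69 FPKM in YFP and 6.54 and 6.36 FPKM in DEK, so both DEK values lay between the YFP values (log2 fold change 0.26, SE 0.29, limma adjusted p = 0.587). Nrp2, a receptor for Sema3b, was at 1.41 and 1.74 FPKM in YFP and 1.21 and 2.27 FPKM in DEK (log2 fold change 0.06, SE 0.26, limma adjusted p = 0.894).

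Of the Slit and Robo genes, Robo1 was the tested one. Robo1 stood at 9.00 and 8.69 FPKM in YFP and 8.36 and 9.91 FPKM in DEK (log2 fold change 0.04, SE 0.18, limma adjusted p = 0.907), with overlapping groups. Robo2 and Robo3 did not exceed 0.0281 FPKM. Of the ligand genes, Slit2 was at 0.778 and 0.599 FPKM in YFP and 0.321 and 1.09 FPKM in DEK, and Slit1 and Slit3 stayed lower, at 0.344 FPKM or less. The cells thus held RNA of the Robo1 receptor and little of its ligands.

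Other genes of these pathways (netrins, guidance co-receptors, adaptors and actin regulators) were taken as a list of 68 symbols in the table, of which 54 were tested. By limma 2 were higher and 2 lower in DEK (7.78% of all tested genes were called either way), and at an unadjusted p under 0.05, 6 were higher and 9 lower, beside 16.9% and 12.2% of all tested genes. Enah, an actin regulator at the leading edge that acts downstream of Robo and netrin receptors, stood at 0.818 and 1.25 FPKM in YFP and 5.94 and 8.24 FPKM in DEK. It rose by 1.98 on the log2 scale (SE 0.24, limma adjusted p = 0.0125), with DEK values well above both YFP values. Enah reached 1 FPKM in YFP replicate 2 and both DEK libraries, and would not have passed the filter on YFP alone. Fes, a tyrosine kinase that acts downstream of plexins and is abundant in myeloid cells, stood at 0.790 and 0.0360 FPKM in YFP and 2.62 and 3.05 FPKM in DEK (log2 fold change 1.49, SE 0.31, limma adjusted p = 0.0438). Fes passed the filter on low values through the DEK libraries alone, the group where it is high. In the same libraries 4 of 8 tested macrophage and monocyte markers were higher, and their part in the Fes difference was not tested.

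On the lower side, Chn2, a chimaerin that switches off Rac, stood at 4.40 and 4.69 FPKM in YFP and 0.722 and 0.843 FPKM in DEK. It fell by 1.64 on the log2 scale (SE 0.20, limma adjusted p = 0.0125), and no DEK value came near the YFP values. Chn2 passed the filter through the YFP libraries alone, the group where it is high. Mical2, a relative of the plexin-binding oxidase Mical1, stood at 3.14 and 3.4 FPKM in YFP and 1.08 and 1.08 FPKM in DEK (log2 fold change -1.04, SE 0.20, limma adjusted p = 0.0376). With 1 library left out on the same genes limma called 0 of these 4 genes, at an adjusted p of 0.0606 to 0.216, while each kept an unadjusted p under 0.05. Over all alternatives the adjusted p ran from 0.0115 to 0.101 for Enah, 0.0346 to 0.216 for Fes, 0.00762 to 0.124 for Chn2 and 0.0244 to 0.189 for Mical2. With an added value of 0.1 FPKM the log2 fold changes were 2.67 for Enah, 3.07 for Fes, -2.40 for Chn2 and -1.51 for Mical2, and with 5 FPKM they were 0.997, 0.54, -0.72 and -0.44. The netrin receptor Neo1 did not pass, with 10.8 and 13.1 FPKM in YFP and 12.7 and 11.9 FPKM in DEK, and the netrin receptor Dcc was listed at 0 in 3 libraries. The netrin gene Ntn1 stood at 15.0 and 6.58 FPKM in YFP and 20.0 and 33.4 FPKM in DEK (log2 fold change 1.29, SE 0.40, limma adjusted p = 0.103). Rgma, which encodes a ligand of Neo1, stood at 63.3 and 77.4 FPKM in YFP and 31.5 and 47.9 FPKM in DEK (log2 fold change -0.83, SE 0.23, limma adjusted p = 0.0800). These 4 were picked with their values in view, as were Adgrl1 above and the guidance genes that have no call, a mean below 10 FPKM in both groups and a more abundant family member.

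**Figure D5:**
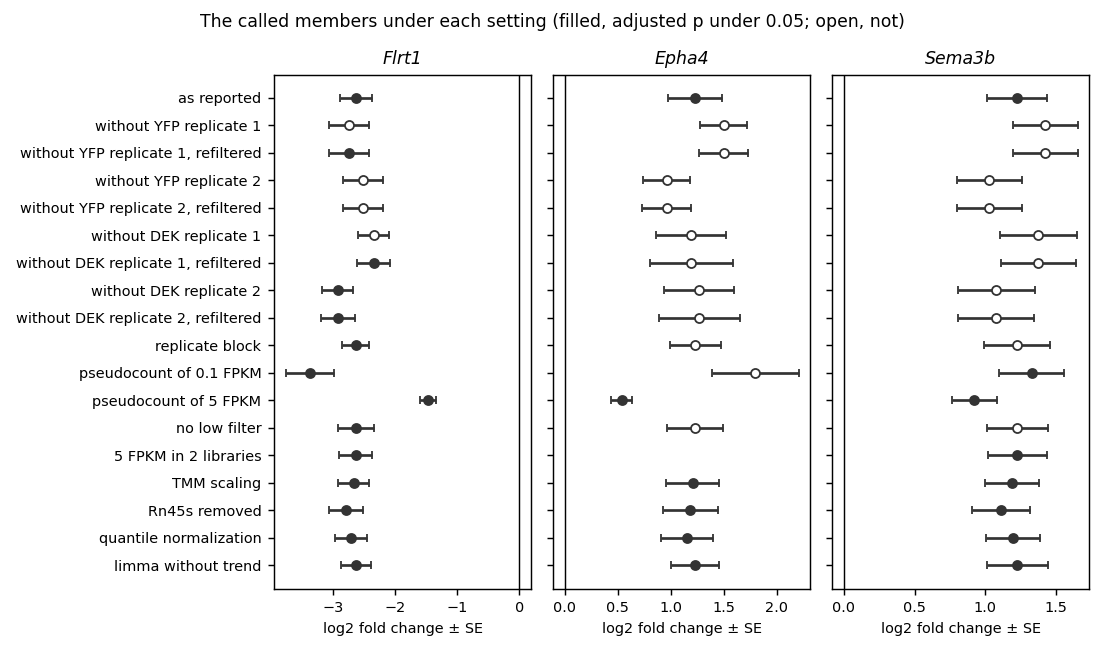
Log2 fold change with 1 standard error of the 3 called guidance genes as reported and under each alternative in which the gene was tested; filled points have an adjusted p under 0.05. Each gene keeps its side of 0 in every fit, with Flrt1 between -3.37 and -1.48, and Epha4 and Sema3b are open points in each fit that leaves out a library.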

How the data were processed

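Polyadenylated RNA of 4 libraries was sequenced by the authors. Per the submitters' processing notes the tools were R 3.4.1, StringTie 1.3.3 and STAR 2.5.3a and the build was mm9; settings and annotation are not given in the sources used here. The deposited values are read as FPKM made by the authors, which is inferred, since no header names the unit and TPM is compatible with the values. Column totals were 541183 to 545123 FPKM; no read counts are given, so depth is unknown and no intervals are given. All 4 value columns were used.

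Values were tested as log2(FPKM + 1) with limma 3.58.1 in R 4.3.3, with a variance trend, no covariate, after dropping genes that did not reach 1 FPKM in 2 libraries. A fold change on this scale understates low genes. The script was tested on simulated data. The smallest exact permutation p for 2 against 2 libraries is 0.333, so limma's p rests on spread shared across genes.

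Values by library are given for Dek, called genes, genes at a mean of 10 FPKM or more in either group, the most abundant tested gene of each family, and called pathway genes. Other tested genes were described after their values were seen. The genes and lists were chosen with earlier results of these data known. Overlapping genes come from GENCODE M21 and promoters from RefSeq (57 of 66 genes matched), both on GRCm38, and no expression value depends on them. Alternatives were omission of each library, with the gene filter kept or reapplied, a replicate block, added values of 0.1 or 5 FPKM, a low filter of 5 FPKM or none, TMM scaling (trims of 30 and 5%), Rn45s removal, quantile normalization, and no variance trend.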

Additional observations from a re-analysis of the deposited data

How the results depend on the processing

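Under 17 alternatives Flrt1, Epha4 and Sema3b kept their direction wherever they were tested, and Flrt1 was called in 13 of 17, Epha4 in 5 of 16 and Sema3b in 7 of 17. Guidance genes called higher numbered 2, and 0 with the replicate block, 0 without a low filter, 1 with an added value of 0.1 FPKM and 1 under the low filter of 5 FPKM, where Epha4 was not tested. Those called lower numbered 1, and 2 with the replicate block (Flrt1 and Sema6c), and 2 with Rn45s removed, quantile normalization or no variance trend (Flrt1 and Efna2). Pathway genes called higher numbered 2, and 1 with the replicate block, an added value of 0.1 FPKM, no low filter, the 5 FPKM filter, Rn45s removed or quantile normalization, and 3 without the variance trend. Those called lower numbered 2, and 1 with the replicate block, 0 without a low filter and 0 under the low filter of 5 FPKM, where Chn2 and Mical2 were not tested, and 3 with TMM scaling or Rn45s removed. Of all tested genes, 948 were called, 618 with the replicate block and 293 without a low filter. Higher genes made up 58.8% of these calls, 52.5% with TMM scaling, 48.6% with quantile normalization and 43.2% with Rn45s removed.

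With 1 library omitted, limma called 0 guidance genes higher in each fit and 0 to 1 lower, 0 to 1 pathway genes higher and 0 to 4 lower, and 0 to 780 of all genes. The calls were 0 without DEK replicate 1 on the same genes, with 2215 at an unadjusted p under 0.05, and 302 with the filter reapplied. They were 115, 69 and 184 without YFP replicates 1 and 2 and DEK replicate 2, and 168, 83 and 780 with the filter reapplied. A group's lone library is then assumed to have the spread of the remaining pair. The replicate numbers pair no samples by the labels, and the deviations of same-numbered libraries had a correlation of 0.06 across 12179 genes (2 pairs, which share the same number only).

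Of the genes named by the fixed rule, Nrp1, Plxna2, Plxna3 and Robo1, which had no call, changed sign under some alternatives. With 1 library omitted, the fold change of Nrp1 ran from -0.139 to 0.669, of Plxna2 from -0.132 to 0.132, of Plxna3 from -0.165 to 0.216 and of Robo1 from -0.0731 to 0.149, each below 0 without 1 library (YFP replicate 2 for Nrp1 and Plxna2, DEK replicate 2 for Plxna3 and Robo1), and Plxna2 also at -0.0109 without DEK replicate 2. Plxna2 had -0.00084 with an added value of 5 FPKM. With TMM scaling Plxna2 had -0.0387 and Plxna3 -0.0138, with quantile normalization -0.0482 and -0.0285, and with Rn45s removed -0.127 and -0.101, with Robo1 at -0.0836. The values of Efna1, Efnb1, Plxnb2 and Plxnd1, which had no call, moved by over 1.5 times without DEK replicate 1 or 2 and ran from -0.25 to -0.12, 0.35 to 0.73, -0.26 to -0.02 and 0.28 to 0.60. The causes of these changes were not tested.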
